A study of Oryza sativa with 12 samples.

Results

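Peroxisomes are small organelles bounded by a single membrane, and in plants they hold the whole of fatty acid β-oxidation. The genes described here are the 85 genes for peroxisomal proteins and for the enzymes of β-oxidation that could be measured in rice leaves. They were picked by words in the first 2 fields of the deposited gene descriptions, such as peroxisomal, glyoxysomal, peroxin, acyl-CoA oxidase, 3-ketoacyl-CoA thiolase, enoyl-CoA hydratase and long chain acyl-CoA synthetase. The words matched 120 of 39967 genes. Of these, 85 had an FPKM of 1 or more in 3 or more libraries of the 12, the minimum met by 22648 genes in all. FPKM is fragments counted, scaled to coding length and by a factor for each library. By role, 15 genes belong to fatty acid activation and import, 4 encode acyl-CoA oxidases, 10 hydratases and multifunctional proteins, 2 thiolases, 5 auxiliary enzymes, 20 peroxins and division proteins and 29 other peroxisomal proteins. Some of these match proteins of another substrate or compartment. The 15 include matches to acetyl-CoA synthetase, 2-succinylbenzoate-CoA ligase, trans-cinnamate-CoA ligase and a chloroplastic ABC transporter. Among the 10 are matches to a mitochondrial enoyl-CoA hydratase and a 3-hydroxyisobutyryl-CoA hydrolase-like protein, and among the 29 a match to mitochondrial TIM17-2. All count in the values by role. Isocitrate lyase, malate synthase and 2 further genes, treated with other pathways, were left out of the 85.

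The plants were rice (Oryza sativa) of cultivar ZH11, called WT, and a mutant of PHR2, called phr2, in which this MYB-type transcription factor of the phosphate (Pi) starvation response is labelled as knocked out. All plants were grown on 1/2MS medium. For the no Pi groups, plants aged 3 weeks were moved to 1/2MS without Pi and leaves were taken on day 3, and for the control groups no treatment is labelled and no day of harvest is given, so Pi supply and any difference in harvest or handling cannot be told apart. The 4 groups are called WT control, phr2 control, WT no Pi and phr2 no Pi, and each has 3 libraries of leaf RNA, and the labels do not say whether these are separate plants, so p-values measure only the spread between libraries.

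In β-oxidation, a fatty acid is first joined to coenzyme A by an acyl-CoA synthetase and brought across the peroxisomal membrane by an ABC transporter. Acyl-CoA oxidase, a multifunctional hydratase and dehydrogenase, and 3-ketoacyl-CoA thiolase then shorten the chain in repeated turns and release acetyl-CoA. Peroxins import the enzymes and build the organelle. In green leaves the same organelle carries photorespiration, and in germinating seeds and senescing leaves it turns over stored or membrane lipid.

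Depth was 10109727 to 13122430 reads a library, recovered from the FPKM values. The library size implied by the FPKM scale was not the summed reads. Implied over summed size was 0.674 to 0.938 in WT control and 0.974 to 1.21 in WT no Pi. It was 0.979 to 1.15 in phr2 control and 1.13 to 1.15 in phr2 no Pi, so the FPKM scale differed between groups. The voom fit given below used the summed reads as library size. PHR2 itself (Os07g0438800) was at 17.9 to 27.5 FPKM for the WT controls, 24.7 to 31.5 for WT no Pi, 21.4 to 29.6 for the phr2 controls and 23.2 to 29.7 for phr2 no Pi, so its level does not check the genotype labels. The library labelled phr2 no Pi 3 stood apart from its group. Its nearest library was WT no Pi 2 (Pearson r = 0.968 over genes), and its mean r was 0.871 with its own group and 0.904 with the WT libraries. For WT no Pi 2 the mean r was 0.883 over phr2 libraries against 0.871 over those of its own genotype, and WT control 3 was nearest to phr2 no Pi 3 (r = 0.950). Whether libraries were mixed up was not tested. Of the WT controls, replicate 3 had the highest value for 55 of the 85 genes (64.7%, against 37.9% of all genes), and replicate 1 had the lowest for 45 (52.9%, against 40.7%). Leaf mesophyll markers (small subunits of Rubisco and chlorophyll a-b binding proteins, 19 of 31 at an FPKM of at least 1 and 11 listed at 0 in every library) summed to an FPKM of 92512 to 156354 for the WT controls, 36796 to 52167 for WT no Pi, 78542 to 118959 for the phr2 controls and 55666 to 117059 for phr2 no Pi. Casparian strip genes, markers of root endodermis, had 2 of 6 members at an FPKM of at least 1 and summed to no more than 49.1 in any library. Of 75 glutelin, prolamin and oleosin genes, the markers of seed reserve tissue, 44 were listed at 0 in every library, and their summed FPKM was 1083 to 2109 for the WT controls, 965 to 1414 for WT no Pi, 643 to 1260 for the phr2 controls and 792 to 918 for phr2 no Pi. Of the 19 seed reserve genes tested, 13 had a log2 change above 0 in WT and none passed, with a median of 0.48, and their part in the results was not tested.

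Together the 85 genes took a larger share of the reads in WT no Pi than in any other group. The share was 0.375%, 0.371% and 0.635% in the replicates 1, 2 and 3 of WT control and 0.999%, 0.885% and 1.28% in those of WT no Pi. It was 0.627%, 0.510% and 0.532% in phr2 control and 0.639%, 0.676% and 0.825% in phr2 no Pi. Every WT no Pi library lay above the other 9, and both no Pi groups lay above their controls without overlap. The mean was 0.460% ± 0.151 with Pi and 1.06% ± 0.204 without it in WT, and 0.556% ± 0.0619 and 0.713% ± 0.0983 in phr2 (SD, n = 3 libraries each), as a description with no test. On the same reads and library sizes, the voom fit gave a median log2 change over all genes of 0.48 in WT and 0.13 in phr2. Between the genotypes in control medium it was 0.45. Over the 85 genes these medians were 1.16, 0.31 and 0.78. A higher share is thus not by itself particular to the 85. In bulk leaf, a change in the number of cells of a type and a change in RNA per cell cannot be told apart. As this share was highest, in WT no Pi, the summed leaf mesophyll markers were lowest, and their part in the result was not tested.

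**Figure D1:**
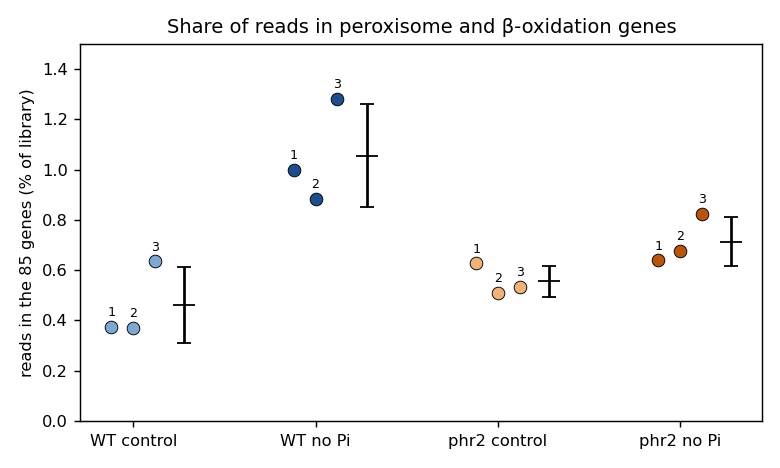
Share of all recovered reads of a library (%, vertical axis) that fell in the 85 peroxisome and β-oxidation genes, for each of the 12 libraries by group. Points are libraries with their replicate number and bars are the mean ± SD of 3; the 3 WT no Pi libraries lie at 0.885% to 1.28%, above all others.

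Of the roles, the acyl-CoA oxidases had the largest median response of WT to Pi withdrawal (WT no Pi against WT control). Their median log2 change was 2.18. It was 0.94 for activation and import and 0.77 for the hydratases and multifunctional proteins, and no test compared the roles. In limma on log2(FPKM + 1), with p-values adjusted over all 22648 genes by the Benjamini-Hochberg method and called at 0.05, 7 of the 85 genes rose and 1 fell, while 77 did not pass. The 7 that rose are 8.24% of the 85, against 0.958% of all genes tested, and the 1 that fell is 1.18%, against 1.40%. The 7 comprise all 4 acyl-CoA oxidases, 2 activating enzymes and 1 hydratase. The 3 WT no Pi values lay above all 3 WT control values for 23 of the 85 genes (27.1%, against 11.9% of all genes) and below them for 4 (4.71%, against 12.9%). The median log2 change was 0.59 over the 85 genes and −0.01 over all genes, and 66 of the 85 changes were above 0. With the libraries rescaled to the same FPKM sum, which moves the median of all genes to 0.41, 15 of the 85 were called higher (17.6%, against 4.14% of all genes) and 0 lower (against 0.689%). Limma-voom on the recovered reads, with that median at 0.48, called 14 higher (16.5%, against 3.68%) and 0 lower (against 0.552%). The median of the 85 minus that of all genes was 0.60 as deposited, 0.65 rescaled and 0.68 by voom. The median of all genes moved upward in these 2 fits, so a gene said below to pass in them did so with that shift. The count of calls depended on single libraries. None of the 85 passed without WT control 1, WT control 2, WT no Pi 1, WT no Pi 3 or phr2 no Pi 2. Few of all 22648 genes passed in these fits. In the same order, 0 were higher and 1 lower, 0 and 0, 0 and 0, 1 and 0, and 11 and 7. Without WT control 3, 27 of the 85 passed, 24 higher (28.2%, against 6.84% of all genes) and 3 lower (3.53%, against 7.10%). Without the phr2 controls 1, 2 or 3 the count was 4 (4.71%), 2 (2.35%) or 4 (4.71%), all higher, against 0.318%, 0.163% and 0.336% of all genes. Without phr2 no Pi 1 it was 1, also higher (1.18%, against 0.128%). The median stayed between 0.48 and 0.66 when any 1 library was left out.

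**Figure D2:**
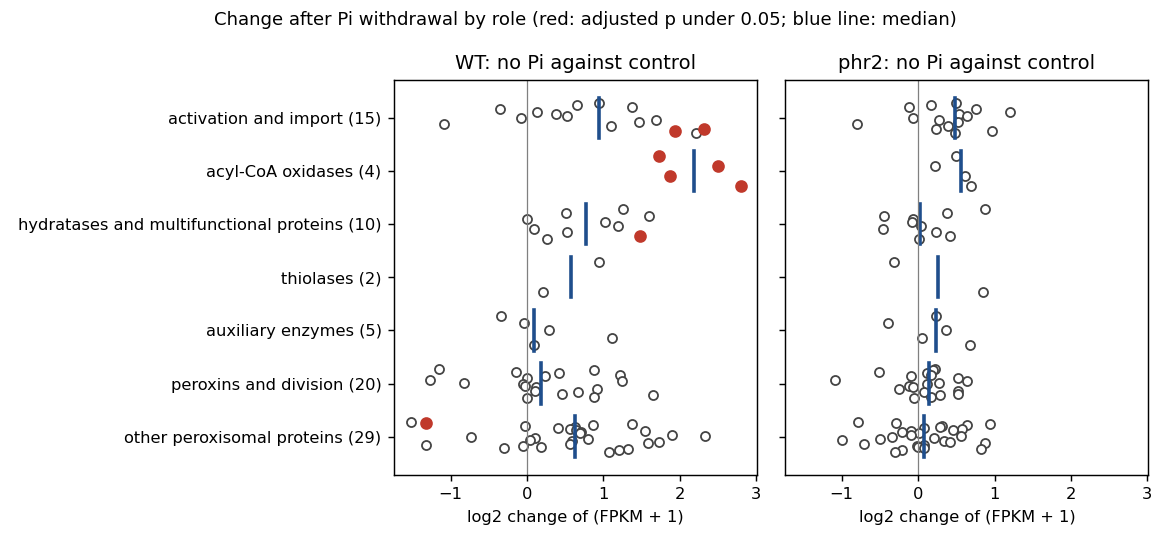
Change of log2(FPKM + 1) on Pi withdrawal (horizontal axis) for each of the 85 genes by role, in WT (left) and phr2 (right), with the number of genes in brackets. Circles are genes, red ones have an adjusted p under 0.05, and blue lines are medians; in WT the 4 acyl-CoA oxidases lie at 1.73 to 2.80, and no gene passed in phr2.

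The acyl-CoA oxidases catalyse the first and committing step of each turn and differ in the chain lengths they accept. Names ending in -like give the Swiss-Prot match in the deposited descriptions, mostly from Arabidopsis, or the description itself. The ACX2-like gene Os11g0605500 (chromosome 11, 23354197 to 23358318, minus strand) had FPKM values of 2.18, 4.83 and 9.9 for the WT controls, 59.3, 21.4 and 49.5 for WT no Pi, 11.7, 13.7 and 7.22 for the phr2 controls and 20.9, 15.2 and 17.1 for phr2 no Pi. It was at least 21.4 in each WT no Pi library and lower in all 9 others, and the WT controls overlapped phr2 control but not phr2 no Pi. Its change in WT was 2.80 ± 0.50 SE, adjusted p = 0.0332, the largest of the 85.

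ACYL-COA OXIDASE 4 (Os05g0163700, chromosome 5, 3730639 to 3735239, minus strand) had FPKM values of 48.2, 19.6 and 23.5 for the WT controls, 213, 86.5 and 236 for WT no Pi, 39.8, 54.3 and 36.3 for the phr2 controls and 61.7, 48.2 and 41.6 for phr2 no Pi. Its WT no Pi libraries stood above all other 9, with replicate 2 the lowest of them, and its phr2 libraries in the 2 media overlapped. The log2 change was 2.49 ± 0.44 SE, adjusted p = 0.0332 in WT and 0.22 ± 0.44 SE, adjusted p = 0.998 in phr2. The second gene with an ACX4 match, Os01g0159400 (chromosome 1, 3108117 to 3113940, minus strand), had FPKM values of 30, 33.5 and 68.3 for the WT controls, 149, 99.7 and 178 for WT no Pi, 51.2, 37.4 and 31.1 for the phr2 controls and 44.5, 51.2 and 75.4 for phr2 no Pi. Here too every WT no Pi value was above all others, and WT control 3 was the highest of its group. The change in WT was 1.73 ± 0.38 SE, adjusted p = 0.0442.

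The ACX3-like Os06g0354500 (chromosome 6, 14504152 to 14512950, minus strand) had FPKM values of 16.7, 16.8 and 25.5 for the WT controls, 88.1, 47.9 and 93.4 for WT no Pi, 38.4, 20.4 and 18.8 for the phr2 controls and 42.3, 39.1 and 33.8 for phr2 no Pi. The 3 WT no Pi libraries again lay above the other 9. The change in WT was 1.87 ± 0.36 SE, adjusted p = 0.0385. Summed over the 4 oxidase genes, FPKM was 74.8 to 127 in WT control as against 256 to 557 in WT no Pi, and 93.4 to 141 in phr2 control as against 154 to 169 in phr2 no Pi. Another matched oxidase, the ACX4-like Os06g0347100, was listed at 0 in 10 libraries and at 507 and 381 in phr2 control 2 and 3, and so missed the minimum of 3 libraries.

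**Figure D3:**
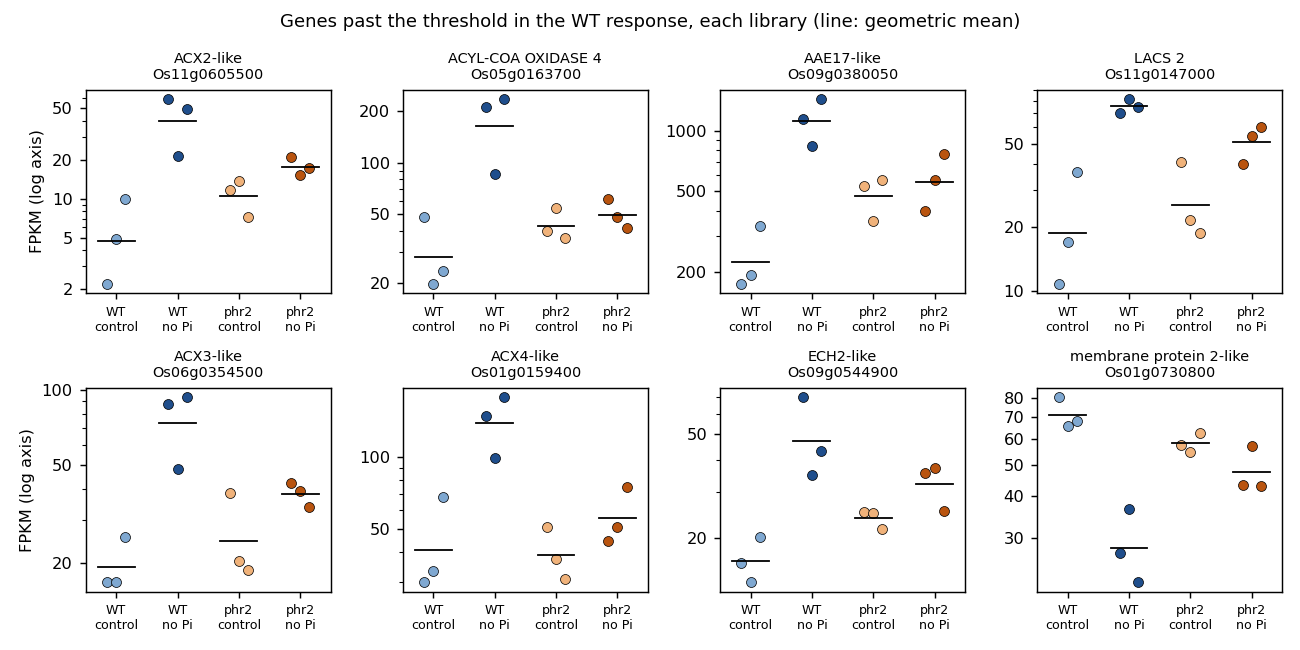
FPKM of the 8 genes that passed in the WT response, on a log axis whose range differs between panels. Points are single libraries, 3 a group, and lines are geometric means; for the 4 acyl-CoA oxidases the WT no Pi points lie above all others, and for the membrane protein 2-like gene they lie below.

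Among the activation and import genes, the acyl-activating enzyme-like Os09g0380050 was the most abundant of all 85 per length, with a mean FPKM of 610. It matches AAE17 of Arabidopsis, a member of the family that joins organic acids to coenzyme A. This gene (chromosome 9, 12821072 to 12821612, plus strand) had FPKM values of 173, 192 and 335 for the WT controls, 1146, 839.7 and 1441 for WT no Pi, 531, 357 and 569.6 for the phr2 controls and 398, 573 and 769 for phr2 no Pi. WT control lay lowest and WT no Pi highest, with no overlap of either with the phr2 groups in the same medium. The change in WT was 2.31 ± 0.37 SE, adjusted p = 0.0301. Its coding length is only 171 bases, and 412 bases upstream on the same strand lies Os09g0380000, with the same match, whose FPKM was 109 to 259.6 with Pi and 192 to 606 without it in WT (1.09 ± 0.48 SE, adjusted p = 0.184). Whether the 2 loci are parts of 1 gene was not tested.

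LONG-CHAIN ACYL-COA SYNTHASE 2 (Os11g0147000, chromosome 11, 2131922 to 2141236, minus strand) is matched to LACS6, a peroxisomal synthetase of Arabidopsis that activates long-chain fatty acids. Its FPKM values were 10.7, 17 and 36.8 for the WT controls, 70.3, 81.7 and 75.2 for WT no Pi, 41, 21.8 and 18.7 for the phr2 controls and 40.2, 54.3 and 60.1 for phr2 no Pi. The WT no Pi libraries lay in a narrow band above the rest, WT control 3 was the highest of the WT controls, and the phr2 groups overlapped at 40.2 to 41.0 FPKM. The change was 1.94 ± 0.43 SE, adjusted p = 0.0442 in WT and 0.96 ± 0.43 SE, adjusted p = 0.998 in phr2, where it was the only one of the 85 with an unadjusted p under 0.05. A locus listed at 0 overlaps it on the opposite strand. LONG-CHAIN ACYL-COA SYNTHETASE 8 (Os05g0317200) had FPKM values of 6, 9.4 and 32.6 for the WT controls, 33, 46.2 and 49.4 for WT no Pi, 47.4, 32.9 and 49.7 for the phr2 controls and 51.9, 69.4 and 38.4 for phr2 no Pi. It was low in WT control 1 and 2 and at like levels in the other groups, with all 3 phr2 control values just above or well above the WT controls. The changes, 1.68 ± 0.50 SE, adjusted p = 0.0854 in WT and 1.69 ± 0.50 SE, adjusted p = 0.113 between the genotypes in control medium, did not pass.

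The other 12 activation and import genes had log2 changes of −1.09 to 2.21 in WT, with 9 above 0 and none past the threshold. A pair of them are named here after their values were seen. LONG-CHAIN ACYL-COA SYNTHETASE 7 (Os12g0143900), the second LACS6-like gene, had an FPKM of 2.39 to 26.2 with Pi and 37.4 to 62.1 without it in WT (2.21 ± 0.64 SE, adjusted p = 0.0813). ABC TRANSPORTER D FAMILY MEMBER 2 (Os01g0966100) matches the Arabidopsis transporter that carries acyl groups into the peroxisome, and its FPKM in WT was 24.3 to 49.6 with Pi and 88 to 124 without it, with no overlap (1.37 ± 0.40 SE, adjusted p = 0.0806). That transporter passed in the rescaled and voom fits, whereas the synthetase did not. The median over the 15 genes of activation and import was 0.94 in WT and 0.48 in phr2.

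All 10 hydratases and multifunctional proteins had a log2 change above 0 in WT, with a median of 0.77, and 1 passed. In phr2 the median was 0.02, with 6 of 10 above 0. The one that passed, the ECH2-like Os09g0544900 (chromosome 9, 21538001 to 21542921, minus strand), encodes a hydratase that in Arabidopsis serves the breakdown of unsaturated fatty acids. Its FPKM values were 16, 13.4 and 20.1 for the WT controls, 69.6, 34.8 and 43.3 for WT no Pi, 25.2, 24.9 and 21.6 for the phr2 controls and 35.5, 37.2 and 25.4 for phr2 no Pi. The WT control values lay below all phr2 control values, and these below the WT no Pi values. Its change was 1.48 ± 0.32 SE, adjusted p = 0.0442 in WT and 0.42 ± 0.32 SE, adjusted p = 0.998 in phr2.

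The most abundant hydratase per length, the ECH1-like Os03g0310400, had FPKM values of 43.8, 39 and 43.7 for the WT controls, 116, 63.4 and 126 for WT no Pi, 68.8, 50 and 41.8 for the phr2 controls and 60.9, 53.8 and 47.7 for phr2 no Pi. Its WT no Pi libraries spanned a wide range, with replicate 2 below the highest phr2 control, and all of them lay above WT control. The change of 1.19 ± 0.32 SE, adjusted p = 0.0671 did not pass. It did pass in the rescaled and voom fits, which called 4.14% and 3.68% of all genes higher, against 0.958% as deposited. The MFP-a-like Os05g0155000 was low, with FPKM values of 0.994, 2.63 and 2.06 for the WT controls, 2.09, 3.33 and 0.99 for WT no Pi, 3.07, 9.83 and 2.28 for the phr2 controls and 2.8, 3.13 and 2.53 for phr2 no Pi. The groups of this multifunctional gene overlapped throughout, apart from a high phr2 control 2 (0.09 ± 0.47 SE, adjusted p = 0.926). The multifunctional gene ABNORMAL INFLORESCENCE MERISTEM1 (Os02g0274100), known in rice for a role in salicylic acid synthesis and named here after its values were seen, had an FPKM of 12.9 to 25.8 with Pi and 21.8 to 91.1 without it in WT, with overlap (1.60 ± 0.58 SE, adjusted p = 0.126). The other hydratases had log2 changes of 0.00 to 1.26.

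The thiolases release acetyl-CoA at the last step. 3-KETOACYL-COA THIOLASE 1 (Os02g0817700) was the more abundant per length, with FPKM values of 624, 338 and 313 for the WT controls, 1342, 395 and 874 for WT no Pi, 337, 518 and 596 for the phr2 controls and 468, 319 and 359 for phr2 no Pi. In WT no Pi it was high in replicates 1 and 3 and within the range of the controls in replicate 2, so the groups overlapped. The change was 0.94 ± 0.45 SE, adjusted p = 0.221, which did not pass. It did pass with the libraries rescaled but not by voom. The other thiolase, Os10g0457600, had FPKM values of 375, 116 and 226 for the WT controls, 426, 143 and 253 for WT no Pi, 51.5, 34 and 70.2 for the phr2 controls and 59.3, 61.9 and 201 for phr2 no Pi. Its WT groups overlapped (0.21 ± 0.58 SE, adjusted p = 0.846), and it was low in 5 of 6 phr2 libraries, with phr2 no Pi 3 in the WT range.

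The auxiliary enzymes, which handle double bonds and coenzyme A, had a median change of 0.09 in WT, with none of 5 past the threshold. The NUDT7-like Os08g0375900, described as a peroxisomal coenzyme A diphosphatase, had FPKM values of 2.19, 1.86 and 3.41 for the WT controls, 7.07, 3.41 and 10.5 for WT no Pi, 6.23, 4.49 and 7.11 for the phr2 controls and 5.82, 6.78 and 5.79 for phr2 no Pi. Its WT control values lay just below those of WT no Pi and below both phr2 groups, which overlapped (1.12 ± 0.39 SE, adjusted p = 0.115). Its neighbour Os08g0376200, with the same description, had 14.2, 8.77 and 9.75 for the WT controls, 15.3, 6.34 and 15 for WT no Pi, 4.09, 4.49 and 5.66 for the phr2 controls and 8.86, 5.72 and 10.5 for phr2 no Pi. The second of the 2 was lower in every phr2 control than in any WT control (−1.03 ± 0.39 SE, adjusted p = 0.196), the opposite order to the first, and neither passed.

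The 2,4-dienoyl-CoA reductase-like Os04g0614000, the most abundant auxiliary enzyme, had FPKM values of 71.2, 90.9 and 92.9 for the WT controls, 106, 99.6 and 105 for WT no Pi, 108, 88.8 and 55.2 for the phr2 controls and 121, 99 and 96.6 for phr2 no Pi. The WT no Pi values lay narrowly above WT control, and phr2 control was the most spread group (0.29 ± 0.29 SE, adjusted p = 0.559 in WT). The ECI2-like enoyl-CoA isomerase Os01g0205600 had 8.03, 10.7 and 7.27 for the WT controls, 10.1, 5.58 and 4.86 for WT no Pi, 3.72, 5.15 and 4.62 for the phr2 controls and 5.89, 5.37 and 5.03 for phr2 no Pi. Its phr2 control values lay below the WT controls (−0.81 ± 0.34 SE, adjusted p = 0.231), a difference that did not pass. The log2 change of the remaining one, a dienoyl-CoA isomerase-like gene, was −0.04 in WT.

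Peroxins and division proteins had a median change of 0.18 in WT as deposited, and none of 20 passed there. PEX14 is the docking protein of the import receptor, and 3 of the 85 genes match it. The PEX14-like Os01g0107000 had FPKM values of 126, 77.2 and 46.3 for the WT controls, 44.6, 31.6 and 27.5 for WT no Pi, 28.7, 22.1 and 27.4 for the phr2 controls and 27.2, 27.8 and 37.5 for phr2 no Pi. All 3 WT controls lay above the other 9 libraries, with replicate 3 only just above (−1.16 ± 0.37 SE, adjusted p = 0.0961 in WT). The second, Os05g0578000, had 43.6, 30.3 and 60.6 for the WT controls, 65.1, 78.5 and 108 for WT no Pi, 89.2, 76.1 and 75.3 for the phr2 controls and 58, 68.6 and 76.2 for phr2 no Pi. Here the WT controls lay below WT no Pi and phr2 control without overlap (0.91 ± 0.31 SE, adjusted p = 0.112 in WT). The other one, PEROXIN 14 (Os05g0101200), named after its values were seen, lay between 83.5 and 129 in all 12 libraries.

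The most abundant gene of this class per length was Os07g0152800. It matches PEX13, a partner of PEX14, in Swiss-Prot, while its rice description is that of a glycine-rich protein. The FPKM values were 232, 296 and 609 for the WT controls, 375, 362 and 379 for WT no Pi, 142, 144 and 149 for the phr2 controls and 135, 154 and 439 for phr2 no Pi. In phr2 5 of 6 libraries were at 135 to 154, below every WT library, and phr2 no Pi 3 was in the WT range. The other PEX13-like gene, Os03g0786000, named after its values were seen, had 80.5, 107 and 274 for the WT controls, 126, 172 and 109.6 for WT no Pi, 45.5, 33.1 and 69.1 for the phr2 controls and 44.6, 39.2 and 177 for phr2 no Pi. It showed the same split, with phr2 no Pi 3 again at a WT level. The 16 genes of this class outside the rule for printing every library had log2 changes of −1.26 to 1.25 in WT. PEROXIN 11-4 (Os04g0534600) and 11-3 belong to the family that divides peroxisomes; the first, named after its values were seen, had an FPKM of 167, 171 and 57.1 for the WT controls, 60.8, 48.5 and 38.6 for WT no Pi, 139, 189.6 and 153 for the phr2 controls and 137, 95.8 and 31.2 for phr2 no Pi. WT control 3 and phr2 no Pi 3 lay far below the other libraries of their groups, so that WT control and WT no Pi overlapped.

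Of the 29 other peroxisomal proteins, 22 had a change above 0 in WT, the median was 0.63, and 1 passed, downward. That gene, Os01g0730800 (chromosome 1, 30488192 to 30490382, plus strand), is described as similar to peroxisomal membrane protein 2. Its FPKM values were 80.2, 65.5 and 68.1 for the WT controls, 27, 36.6 and 21.9 for WT no Pi, 57.4, 54.5 and 62.6 for the phr2 controls and 43.4, 57.1 and 43.1 for phr2 no Pi. The WT no Pi libraries lay below all 9 others. Its change was −1.32 ± 0.27 SE, adjusted p = 0.0434, and it was not called with the libraries rescaled or by voom. It rests on the sum of 2 transcripts, of which 1 has the matching description. The coding length of that transcript is only 87 bases. The peroxisomal NAD carrier-like Os03g0265300, whose match in Arabidopsis brings the cofactor of the dehydrogenase step into the organelle, had FPKM values of 12.5, 10.8 and 18.1 for the WT controls, 68, 26.6 and 38.7 for WT no Pi, 25.9, 16.5 and 29.8 for the phr2 controls and 24.1, 23.5 and 18.4 for phr2 no Pi. WT no Pi lay above WT control without overlap, and above phr2 no Pi (1.54 ± 0.38 SE, adjusted p = 0.0564), and the gene passed in the rescaled and voom fits. Os02g0225000 and Os09g0508900, named after their values were seen, have the same match and a higher mean FPKM (134 and 220, against 26.1). Neither passed in WT, and the first changed by −0.03 ± 0.44 SE, adjusted p = 0.972.

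GLYCOLATE OXIDASE 2 (Os04g0623600), an enzyme of photorespiration, had FPKM values of 0.428, 1.45 and 10.8 for the WT controls, 6.59, 31 and 20.6 for WT no Pi, 23.5, 11.4 and 16 for the phr2 controls and 13.1, 59.6 and 18.5 for phr2 no Pi. It was lowest in WT control 1 and 2, and WT control 3 was within the range of WT no Pi (2.33 ± 0.80 SE, adjusted p = 0.113 in WT and 2.32 ± 0.80 SE, adjusted p = 0.162 between the genotypes in control medium). It overlaps Os04g0623650, another of the 85, on the opposite strand, and the use of strand is not stated, so reads of the pair may be mixed. ASCORBATE PEROXIDASE 9 (Os09g0538600), of the family that removes the hydrogen peroxide made by the oxidases, had 5.67, 8.16 and 17.9 for the WT controls, 29.4, 24.6 and 17.4 for WT no Pi, 24.3, 25.9 and 11.7 for the phr2 controls and 14.5, 15.5 and 20.9 for phr2 no Pi. ASCORBATE PEROXIDASE 4 (Os08g0549100) was nearly level, with FPKM values of 527, 468 and 581 for the WT controls, 503, 562 and 459 for WT no Pi, 612, 478 and 498 for the phr2 controls and 474, 503 and 589 for phr2 no Pi. The 2 differ in that the first had its lowest values in WT control 1 and 2 (1.21 ± 0.44 SE, adjusted p = 0.124), while the second lay at 459 to 612 in every library (−0.05 ± 0.25 SE, adjusted p = 0.924). The other 24 genes of this class had changes of −1.52 to 1.90 in WT, 19 of them above 0. Among these, named after their values were seen, were the peroxisomal Lon protease-like Os09g0533400, with an FPKM in WT of 237 to 411 with Pi and 488 to 1206 without it (1.32 ± 0.43 SE, adjusted p = 0.0991), and GLYCOLATE OXIDASE 4 (Os07g0616500), with 73.9 to 105 and 18.3 to 76 (−1.32 ± 0.46 SE, adjusted p = 0.114). Neither passed as deposited, and the Lon protease-like gene passed in the rescaled and voom fits.

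**Figure D4:**
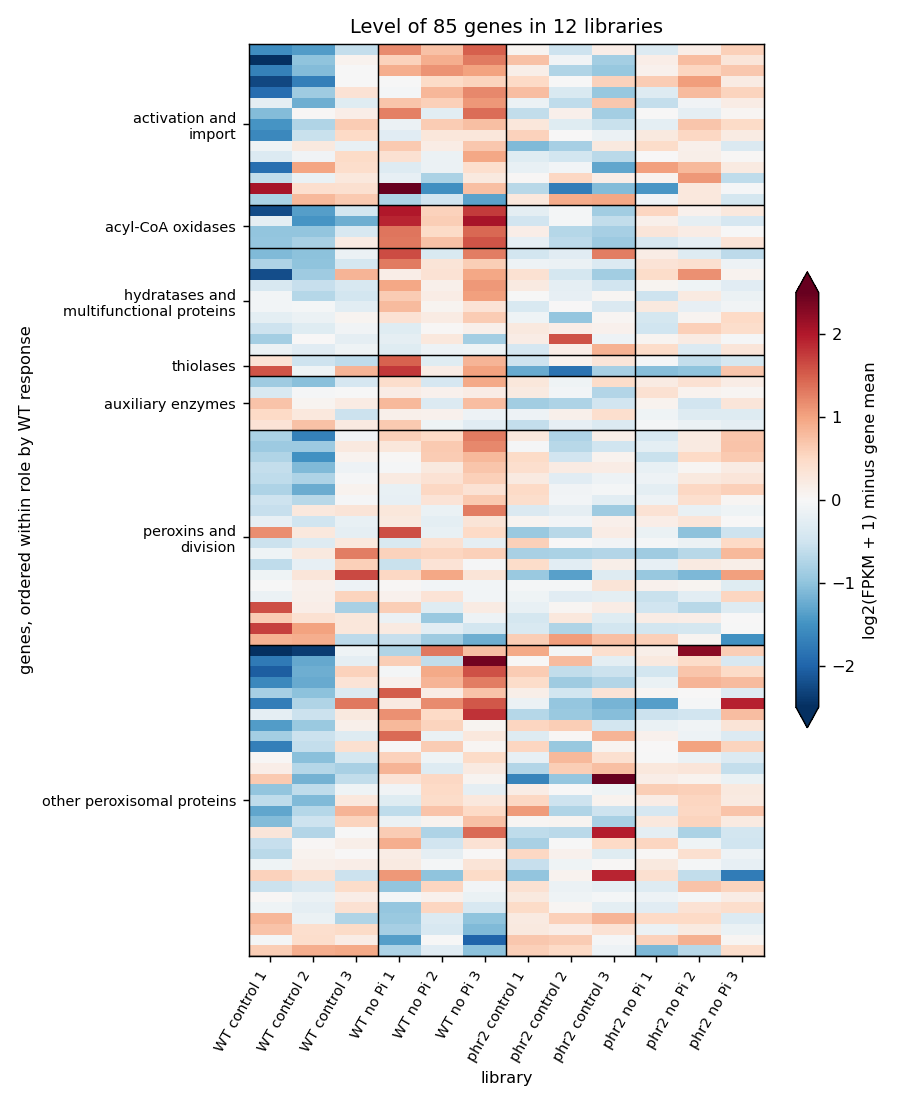
Level of each of the 85 genes (rows, by role and within role by WT response) in each of the 12 libraries (columns), as log2(FPKM + 1) minus the mean of the gene; red is above and blue below the mean. The acyl-CoA oxidase rows are red in the 3 WT no Pi columns, and WT control 1 is blue over most activation and import rows.

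In phr2 the median response to Pi withdrawal was nearer 0, and the test of the difference between the responses passed for none of the 85. In phr2 no Pi against phr2 control, limma called 0 of the 85 higher and 0 lower, and 0% of all 22648 genes in either direction. Voom also called 0 of the 85. At an unadjusted p under 0.05, 1 was higher and 0 were lower (background 2.09% and 1.81%). The phr2 no Pi values lay above phr2 control in 9 of the 85 (10.6%, against 4.47% of all genes) and below in 2 (2.35%, against 5.28%). The median was 0.20, against 0.02 over all genes, with 57 of 85 above 0. By role the median change in phr2 was 0.56 for the acyl-CoA oxidases, 0.48 for activation and import, 0.27 for the thiolases, 0.23 for the auxiliary enzymes, 0.14 for the peroxins and 0.07 for the other peroxisomal proteins, and in WT it was 2.18, 0.94, 0.57, 0.09, 0.18 and 0.63 in the same order. Without phr2 no Pi 3, the library that stood apart, the count of calls stayed at 0 and the median was 0.12. With any 1 library left out the median ran from 0.09, without phr2 control 2, to 0.27, without phr2 no Pi 1.

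The test of the difference of the 2 responses (phr2 minus WT, an interaction) called 0 of the 85 and 0% of all genes by limma in each direction, and voom called 0 of the 85. At an unadjusted p under 0.05, 15 of the 85 were below 0 (17.6%, against 4.14% of all genes) and 3 above (3.53%, against 4.70%). The number below 0 was 4 without WT control 2 (4.71%, against 2.26%), 6 without WT no Pi 1 (7.06%, against 3.93%) and 7 without WT no Pi 3 (8.24%, against 2.76%). It was 8 without phr2 control 1 (9.41%, against 3.97%) and 9 without phr2 no Pi 2 or 3 (10.6%, against 3.61% and 3.36%). Without WT control 3 it was 24 (28.2%, against 7.21%). It was 19 with the libraries rescaled and 20 by voom, where 8.31% and 8.32% of all genes were below 0. The median was −0.36, against 0.02 over all genes, and with the libraries rescaled it was −0.76, against −0.32. For the 4 acyl-CoA oxidases the difference was −1.23 to −2.28, with −2.28 ± 0.62 SE, adjusted p = 0.471 for ACYL-COA OXIDASE 4 and −2.11 ± 0.70 SE, adjusted p = 0.516 for the ACX2-like gene. For the AAE17-like Os09g0380050 it was −2.08 ± 0.53 SE, adjusted p = 0.435. All 10 hydratases and multifunctional proteins had a difference below 0. These differences share WT control and WT no Pi with the WT response in which the genes were described above, so they are not separate evidence.

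Between the genotypes in control medium, limma called 0 of the 85 higher in phr2 and 0 lower, against 0.0795% and 0.587% of all genes, and voom called 0. At an unadjusted p under 0.05, 6 were higher (7.06%, against 7.04% of all genes) and 7 lower (8.24%, against 11.5%). These counts depended on the scaling and on 1 library. With the libraries rescaled 19 were higher (22.4%, against 14.5%) and 2 lower (2.35%, against 6.78%), voom gave 25 (29.4%, against 17.0%) and 2 (2.35%, against 6.36%), and without WT control 3 there were 20 (23.5%, against 11.3%) and 5 (5.88%, against 14.0%). Values did not overlap for 9 genes higher in phr2 (10.6%, against 9.18%) and 11 lower (12.9%, against 11.8%). The median was 0.35, against 0.02 over all genes, and 0.67 against 0.33 with the libraries rescaled. With 1 library left out it ran from 0.15, without WT control 1, and 0.16, without phr2 control 1, to 0.46, without WT control 3. The comparison shares its WT control libraries with the WT response. The 9 genes higher without overlap include LONG-CHAIN ACYL-COA SYNTHETASE 8, GLYCOLATE OXIDASE 2 and the PEX14-like Os05g0578000 (0.87 ± 0.31 SE, adjusted p = 0.176), while PEROXIN 14 (Os05g0101200) differed by 0.08 ± 0.25 SE, adjusted p = 0.88. Of the 11 lower without overlap, 3 are given here, chosen after their values were seen. For the thiolase Os10g0457600 the mean FPKM was 239 ± 129.6 (SD, n = 3) in WT control against 51.9 ± 18.1 (SD, n = 3) in phr2 control, a difference of −2.09 ± 0.58 SE, adjusted p = 0.0993. It passed when phr2 no Pi 3 was left out of the fit (adjusted p = 0.0464), a library outside the comparison that enters only the common spread; that fit called 3.06% of all genes lower and 1 of the 85 (1.18%). For the PEX14-like Os01g0107000 the means were 83.2 ± 40.2 (SD, n = 3) and 26.1 ± 3.5 (SD, n = 3) (−1.53 ± 0.37 SE, adjusted p = 0.0724). For the PEX13-like Os07g0152800 they were 379 ± 202 (SD, n = 3) and 145 ± 3.96 (SD, n = 3) (−1.25 ± 0.45 SE, adjusted p = 0.182), and this gene and the second PEX13-like gene passed when WT control 1 and phr2 no Pi 3 were both left out (adjusted p = 0.0229 for Os07g0152800). That fit called 4.74% of all genes lower and 2 of the 85 (2.35%).

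Without Pi, the acyl-CoA oxidases of phr2 lay below those of WT in every library. All 4 had phr2 values under the lowest WT value, with differences of −0.92 to −1.69 and −1.69 ± 0.44 SE, adjusted p = 0.541 for ACYL-COA OXIDASE 4. Over the 85 genes, limma called 0 higher and 0 lower, as for 0% of all genes, and voom called 0. At an unadjusted p under 0.05, 13 were lower in phr2 (15.3%, against 5.36% of all genes) and 3 higher (3.53%, against 3.31%). The number lower was 2 without WT no Pi 3 (2.35%, against 3.36%) and 4 without WT no Pi 1 (4.71%, against 2.28%). It was 5 without phr2 no Pi 2 (5.88%, against 2.08%), 6 without phr2 no Pi 1 (7.06%, against 2.45%) and 8 without phr2 no Pi 3 (9.41%, against 8.91%). Values of phr2 lay below WT without overlap for 10 of the 85 (11.8%, against 5.46% of all genes) and above for 4 (4.71%, against 5.96%). The 10 include, beside the oxidases, the AAE17-like Os09g0380050, LONG-CHAIN ACYL-COA SYNTHASE 2, ABC TRANSPORTER D FAMILY MEMBER 2, the ECH1-like hydratase and the NAD carrier-like Os03g0265300. The median was −0.28, against −0.01 over all genes, and with 1 library left out it ran from −0.32 to −0.15, the latter without WT no Pi 3, and was −0.18 without phr2 no Pi 1. Without phr2 no Pi 3 none of the 85 passed, while 41 of all genes were called higher and 228 lower. The WT no Pi libraries are shared with the WT response, and the leaf mesophyll markers, at 55666 to 117059 in phr2 no Pi and 36796 to 52167 in WT no Pi, were higher in phr2 here; their part was not tested.

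Position and annotation gave further facts that the word rule did not use. Of the 85 genes, 9 pairs lay within 50 kb of each other, among them 3 insulin-degrading enzyme-like genes in a row on chromosome 7 (Os07g0570100, Os07g0570300 and Os07g0570500) and the hydratases Os02g0654000 and Os02g0654100, 818 bases apart. The members of a pair could differ widely in level. Mean FPKM was 1.95 for Os02g0654000 and 31.5 for Os02g0654100, and 3.13, 33.9 and 14.2 for the trio. Mean FPKM over the 85 ran from 1.42 to 610, with a median of 31.2, against 11.05 for all genes kept. At an FPKM of at least 1 were 73 of the 85 in every library and the other 12 in 8 or more, and 0 in a single group only. Of the 35 matched genes not kept, 22 were listed at 0 in every library, among them 4 further glycolate oxidases and PEROXIN 11-1, which does not show that they are silent, since 12 of those 22 have several annotated transcripts.

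Pathways that feed or use β-oxidation, taken as word lists outside the 85, were read from the same fit. Over all genes that fit called 0.958% higher and 1.40% lower in the WT response. Between the genotypes in control medium it called 0.0795% higher and 0.587% lower in phr2. Among 38 genes of triacylglycerol storage and release, 2 rose and 0 fell, with a median of −0.03. Both match SDP1, the lipase that starts oil breakdown in Arabidopsis seedlings. Os01g0762000 had FPKM values of 2.01, 2.59 and 5.51 for the WT controls, 15.2, 12.1 and 21.1 for WT no Pi, 5.23, 4.42 and 6.59 for the phr2 controls and 6.61, 6.74 and 8 for phr2 no Pi. WT no Pi lay above all other groups (2.02 ± 0.37 SE, adjusted p = 0.0336). Os03g0810900, named after its values were seen, rose by 1.71 ± 0.40 SE, adjusted p = 0.0489. In control medium 2 patatin-like lipases of this list were lower in phr2, with differences of −4.22 ± 0.72 SE, adjusted p = 0.0428 for Os11g0614400 and −2.66 ± 0.49 SE, adjusted p = 0.0449 for Os11g0614500. Neither lipase passed with the libraries rescaled (adjusted p = 0.0872 and 0.1), nor by voom (0.111 and 0.116).

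The glyoxylate cycle lets acetyl-CoA from β-oxidation become sugar. Its isocitrate lyase (Os07g0529000) had FPKM values of 0.074, 1.95 and 0.107 for the WT controls, 1122, 52 and 98 for WT no Pi, 2.77, 11.9 and 14.5 for the phr2 controls and 18.2, 4.7 and 0.756 for phr2 no Pi. Malate synthase (Os04g0486950) had 1.94, 12 and 3.66 for the WT controls, 1153, 125 and 439 for WT no Pi, 6.27, 17 and 9.43 for the phr2 controls and 66.5, 27.7 and 23.8 for phr2 no Pi. Both were low in WT control and highest in WT no Pi, where they varied widely between libraries (6.89 ± 1.11 SE, adjusted p = 0.0301 and 6.15 ± 0.77 SE, adjusted p = 0.0174). In the list of 22 genes of gluconeogenesis from acetyl-CoA, these 2 rose, 2 fructose-1,6-bisphosphatases fell, and the median was 0.25. The 2 that fell were the cytosolic Os01g0866400 (−1.72 ± 0.30 SE, adjusted p = 0.0332) and Os03g0267300 (−2.36 ± 0.46 SE, adjusted p = 0.0388). The latter is described as a chloroplast precursor, and the word list took it in all the same. The bisphosphatase Os01g0866400 did not pass with the libraries rescaled (adjusted p = 0.0573) and was just under the threshold by voom (0.0495). The other genes left out of the 85 were Os06g0677400 (1.54 ± 0.38 SE, adjusted p = 0.0553 in WT) and Os08g0459600 (−1.79 ± 0.45 SE, adjusted p = 0.0773 between the genotypes in control medium), and neither passed.

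Of 21 genes of photorespiration and catalase outside the 85, 0 rose and 2 fell in WT, with a median of −0.30. These were the glycine cleavage T protein-like Os04g0623800 (−1.95 ± 0.27 SE, adjusted p = 0.022) and SERINE HYDROXYMETHYLTRANSFERASE 2 (Os11g0455800, −2.13 ± 0.35 SE, adjusted p = 0.0308). The latter matches SHM4 of Arabidopsis and was taken in by its name alone. Of 31 genes of plastid fatty acid synthesis, 0 rose and 1 fell, with a median of −0.35, and that one, Os03g0352800 (−1.59 ± 0.33 SE, adjusted p = 0.0428), matches a mitochondrial acyl carrier protein and did not pass with the libraries rescaled (adjusted p = 0.0696) or by voom (0.0702). All these lists were chosen with earlier results of these data known.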

How the data were processed

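Leaf RNA-seq of 12 libraries in 4 groups of 3 was used. The authors deposited 1 table of FPKM for 46947 transcripts, made with HISAT2 2.0, StringTie 1.3.0 and Bowtie 0.12.2 per the submitters' processing notes, which name a mouse build; the rice assembly and strand use are not given in the sources used. Lengths were multiples of 3 for 93.8% of coding rows, so they are coding lengths. FPKM times length gave whole reads for 100% of values (tolerance 0.01).

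FPKM was summed over the transcripts of a gene, and the words were matched on the text as deposited (154 rows, 120 genes). Counting only matched rows would leave 82 genes instead of 85. Genes at an FPKM of at least 1 in 3 libraries were tested as log2(FPKM + 1), which understates the change of low genes, with limma 3.58.1 in R 4.3.3 (4 group means, intensity trend, 8 residual and 3.78 prior degrees of freedom). P-values were Benjamini-Hochberg adjusted over all genes and called at 0.05 in 5 comparisons; the fit was tested on simulated data. Values in every library are printed for members that passed, for the 2 of each role with the smallest adjusted p in the WT response and in phr2 against WT in control medium, and for the most abundant of each role; 1 of these is not reported here. The members, roles and lists were chosen with earlier results of these data known. Figures used matplotlib 3.10.9.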

Additional observations from a re-analysis of the deposited data

How the results depend on the processing

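Of the 85 genes, 8 passed in the WT response as reported. The number was 2 with no filter on low values, 15 with the libraries rescaled, 14 by limma-voom, 3 with the replicate number as a block, 2 without WT control 1 and phr2 no Pi 3, and 0 with the WT groups fitted alone. In these fits every call was higher. As shares of the 85 they were 2.35%, 17.6%, 16.5%, 3.53%, 2.35% and 0%, in that order. Of all genes, 0.106%, 4.14%, 3.68%, 0.291%, 0.141% and 0% were called higher. The number ranged from 0 to 27 when 1 library was left out. Whether replicate numbers pair the samples was not settled, and the main fit used no pairing. In the WT response the correlations of same-numbered libraries were 0.257, 0.0801 and 0.171. Those of libraries with different numbers ran from −0.446 to 0.290. In the phr2 response the same-numbered correlations were −0.240, −0.0458 and 0.0999. Between the genotypes they were −0.336, 0.0443 and −0.138 in control medium and 0.301, 0.070 and −0.120 without Pi. In control medium, 0 passed between the genotypes, against 0 to 1 with 1 library left out and 2 with both odd libraries out. The median log2 change in the WT response, 0.59, was 1.05 rescaled and 1.16 by voom, that between genotypes in control medium, 0.35, was 0.67 and 0.78, and that of the interaction, −0.36, was −0.76 and −0.87, and −0.69 to −0.30 with 1 library left out. The medians of all genes moved as well, in the interaction from 0.02 to −0.32 and −0.35, and the members minus all genes came to −0.38, −0.44 and −0.52 there. No called value changed sign under any alternative run. With the block, no other count of calls among the 85 changed, whereas of all genes 0 were called between genotypes in control medium, against 18 higher and 133 lower, and neither patatin-like lipase passed, nor did Os03g0810900 (adjusted p = 0.0728) or Os03g0352800 (0.0516) in the WT response. Depth limits the low genes: the MFP-a-like Os05g0155000 rested on 17 to 240 reads a library. Genes listed at 0 and overlapping loci limit the set as well.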
